A study of Zea mays with 36 samples.

Results

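Of the 7688 cDNA probes measured in roots of maize seedlings (Zea mays, inbred line B73), 42 were higher in nitrate both after 30 min and after 24 h. They were chosen on the deposited normalized values of each scan, as the log2 ratio of nitrate over control averaged over the 6 replicates of a time. A probe was kept where this mean was at least 0.5 at 30 min and at least 0.4 at 24 h and where 5 or more of the 6 replicates lay above 0 at each time. The 30 min condition alone would keep 103 probes (1.34%) and the 24 h condition 433 (5.63%), so that 61 probes met only the first and 391 only the second. Because the ratios at both times chose the members, they are given below as a description, with no test against 0.

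The control roots stood in fresh 5 mM calcium sulfate and the treated roots in 5 mM calcium nitrate, for 30 min or for 24 h. Until then all seedlings had stood in 5 mM calcium sulfate on germination paper, the 24 h plants to day 10 and the 30 min plants to day 11, so that every group shared this start without added nitrate. The treated roots also left calcium sulfate, and effects of gained nitrate and of lost sulfate cannot be told apart. Each of the 6 biological replicates of a time was a nitrate and a control sample labelled with Cy3 and Cy5 on 1 spotted array. Nitrate carried Cy3 in 3 replicates of each time and Cy5 in the other 3. The labels name 3 scans of each of the 12 arrays (High, Medium and Low), 36 in all. The whole root was extracted, so that a lower level through fewer cells of a type and one through less RNA per cell cannot be told apart. Defining markers of root tissue could not be checked, since the probes carry clone accessions in place of gene names.

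Nitrate is both the main nitrogen source of plants in aerated soil and a signal to them. Root cells take it up through dedicated transporters, reduce it to nitrite and then to ammonium, and assimilate the ammonium into glutamine and glutamate, and the genes of this path are known as fast responders in plants first kept without nitrate. A list of these genes (transporters, nitrate and nitrite reductase, glutamine synthetase and glutamate synthase, suppliers of reductant, known regulators) was to be read among the members, but 0 of the 42 could be named through the files or the reference table, so that the list has no count here and no member is given a role.

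The arrays differed in quality. In the High scans 3.44% to 30.4% of spots were saturated (median 4.45%), with 24 h replicate 3 standing apart at 30.4%. Median local background of the channels was 745 to 1894 in the High scans of 30 min replicates 5 and 6, against 75.4 to 933 in those of replicates 1 to 4. In the High scans of the 24 h replicates it was 102 to 1200.

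The members ran from a shallow to a strong response. Their mean log2 ratios, recomputed from the scanner intensities, had a median of 0.79 at 30 min (0.49 to 3.46) and of 1.16 at 24 h (0.43 to 5.56), where the medians of all probes were -0.005 and -0.006. More than 2-fold was reached by 16 members at 30 min, by 24 at 24 h and by 11 at both times. Ratios lay above 0 in 12 of 12 replicates for 31 members, in 11 of 12 for 9 and in fewer for 2. The mean was above 0 in both dye orientations at both times for 42 of 42. The rule nearly fixed this count, since it required 5 or more of 6 replicates above 0, so nothing is read from it. The orientations could still differ widely. At 24 h DV549491 had 0.01 with nitrate in Cy5 and 1.04 with nitrate in Cy3, and DV492115 had 1.05 and 0.10. In the linear model fitted to all probes, 82 probes (1.07%) passed as higher at 30 min and 562 (7.31%) at 24 h, among them 37 and 42 of the members. Nothing is read from the latter counts, since the rule used the same contrasts. With replicates 1 to 4 alone at 30 min, that is, without the 2 of high background, 20 members passed there in place of 37. Of all probes 39 passed in either direction in place of 88. This setting also leaves 4 replicates in place of 6. Without only replicate 1, 2, 3, 4, 5 or 6 of 30 min, 39, 37, 35, 32, 33 and 29 members passed. Of all probes 105, 84, 66, 59, 58 and 59 did. The parts of background and of fewer arrays in this were not tested.

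**Figure D1:**
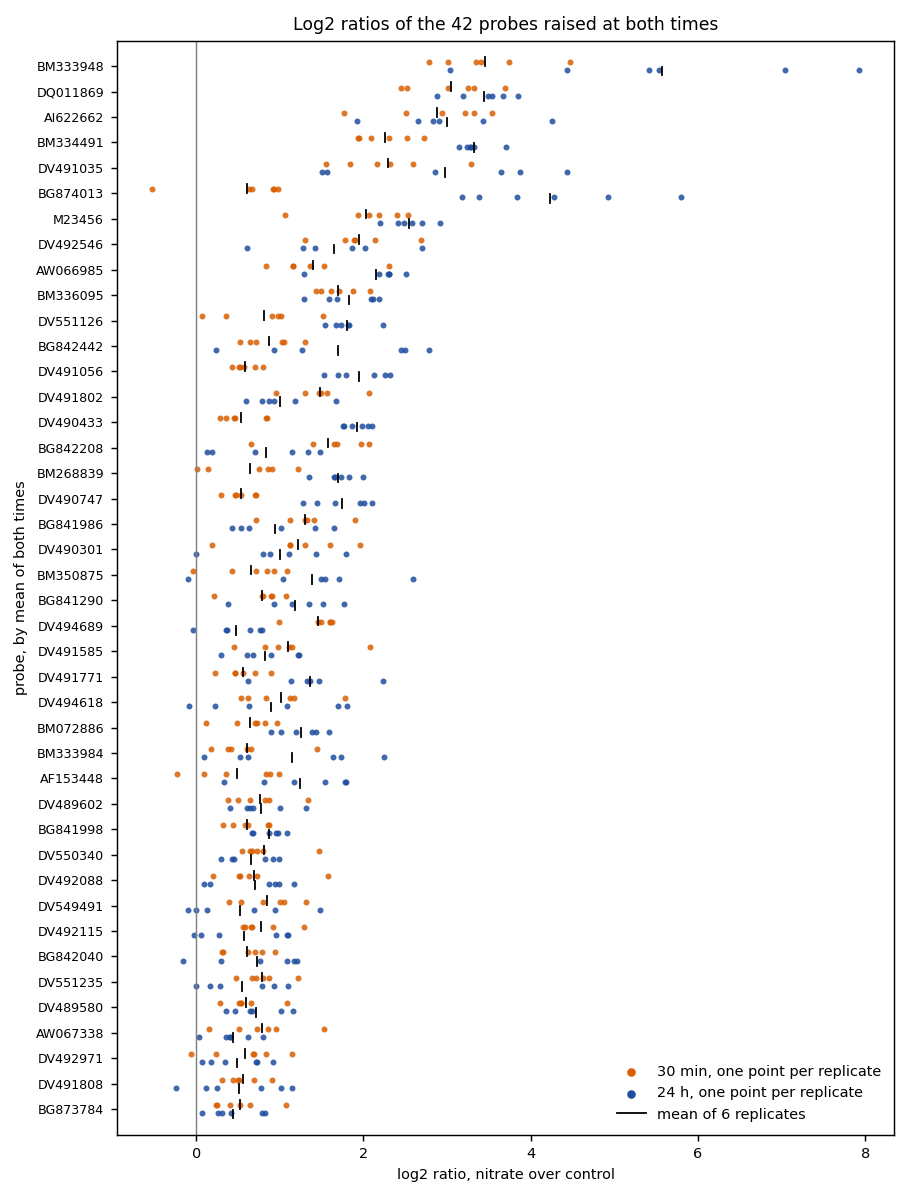
Log2 ratio of nitrate over control (x axis) for each of the 42 probes (y axis, by the mean of both times) in the 6 replicates at 30 min (orange) and the 6 at 24 h (blue), with the mean of each time as a black bar. BM333948 reaches 7.93 in one 24 h replicate, while most of the other probes lie between 0 and 2.

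The thresholds cut through a continuous range. On the values the rule used, AF153448 lay just inside the 30 min threshold at 0.50 and BG873784 at 0.52, with BM350368 at 0.48 and BM073569 at 0.48 just outside. At 24 h, BG873784 at 0.45 and AW067338 at 0.49 were the closest inside, and BG840791 at 0.40 (0.399) and DV490068 at 0.39 the closest outside. A further 5 probes had both means but too few replicates above 0.

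A group of 6 members was more than 4-fold higher in nitrate at both times: BM333948, DQ011869, AI622662, BM334491, DV491035 and M23456. BM333948 had the highest mean ratio of all 7688 probes at each time. Its 30 min ratios were 2.78 at the lowest, 3.37 at the median and 4.47 at the highest, and its 24 h ratios 3.03, 5.48 and 7.93. The mean rose from 11.0-fold, a log2 ratio of 3.46 ± 0.60 (SD, n = 6), to 47.3-fold, a log2 ratio of 5.56 ± 1.76 (SD, n = 6). Its 24 h replicates scattered most among the members, with the lowest of them inside the 30 min range. The 24 h ratios of 7.93 and 7.04 came with the lowest control levels, 6.62 and 6.90, against 8.11 to 11.09 in the others. At 24 h the mean ratio was 4.33 with nitrate in Cy5 and 6.80 with nitrate in Cy3. The size of the 24 h ratio is thus uncertain, and the part of dim control signal or dye in it was not tested.

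DQ011869 had a lowest, median and highest log2 ratio of 2.45, 3.13 and 3.69 at 30 min and of 2.88, 3.52 and 3.84 at 24 h. Its mean was 8.23-fold at 30 min and 10.8-fold at 24 h, and the ranges of the times overlapped for most of their length. AI622662 was similar in both means, with 7.37-fold (2.88 ± 0.65, SD, n = 6) and 7.98-fold (3.00 ± 0.78, SD, n = 6), and every 30 min replicate except the lowest one, at 1.76, lay within the 24 h range of 1.92 to 4.25. DV491035 gave 1.55, 2.24 and 3.29 at 30 min and 1.50, 3.25 and 4.43 at 24 h, so that its lowest 24 h replicate was below every 30 min replicate. M23456 gave 1.07, 2.12 and 2.54 at 30 min and 2.20, 2.54 and 2.91 at 24 h, with all 24 h replicates in or above the upper part of the 30 min range. These 3 probes did not pass the test of the difference between the times (limma, adjusted p of 0.905, 0.329 and 0.191), nor did DQ011869 (adjusted p = 0.347), and a p of this size does not show equal ratios. For DV491035 this depended on the scans. Its nitrate channel was saturated in 3 of 6 High scans at 30 min and in 6 of 6 at 24 h, where the 24 h ratio was 1.92 in the High scans and 3.81 in the Low scans. Its difference was 1.49 in the Low scans alone (adjusted p = 0.0051) and 1.45 in the highest-power scans without saturation (adjusted p = 0.0431), and it also passed with a replicate block (adjusted p = 0.0431).

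The ratio at 24 h was larger than at 30 min for 12 members that passed the contrast of both times in the limma model, against 177 of all probes (2.30%), and smaller for 1 member, against 149 of all probes (1.94%). The rule set a floor under each ratio and did not use their difference, but the difference is made of the same values, so these counts describe how the members divide. The 12 had medians of 0.62 at 30 min and 1.86 at 24 h. Without a dye effect in the model, or with the High scans alone, 8 members passed in either direction in place of 13, and 137 or 182 of all probes in place of 326.

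BG874013 showed the widest gap between the times. Its log2 ratios at 30 min were -0.53 at the lowest, 0.79 at the median and 0.98 at the highest, and at 24 h they were 3.18, 4.06 and 5.80. All 24 h replicates thus lay far above all 30 min replicates, with 1.52-fold at 30 min and 18.8-fold at 24 h. The difference came to 3.63 ± 0.27 (SE; limma, adjusted p = 7.84e-08). The single value below 0 came from replicate 6.

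DV490433, DV491056 and DV490747 formed a tight trio of late gain. DV490433 ran from 0.29 to 0.85 at 30 min, with a median of 0.46, and from 1.75 to 2.10 at 24 h, with a median of 1.92. The difference was 1.38 ± 0.15 (SE; limma, adjusted p = 5.79e-06), and the SDs of 0.24 and 0.15 over 6 replicates were among the smallest of the members. DV491056 ran from 0.42 to 0.80, with a median of 0.54, and then from 1.53 to 2.31, with a median of 1.96, a difference of 1.36 ± 0.16 (SE; adjusted p = 2e-05). DV490747, which the naming rule did not pick and which is added after its values were seen, had means of 0.53 and 1.74. It is spotted directly next to DV491056, from the same source plate. For each of the 3, every 24 h replicate exceeded every 30 min replicate, which held for 7 members in all and for 93 of all probes (1.21%). The other 4 were BG874013, BM334491, BM268839 and DV551126.

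BM334491 joined a strong early ratio to a larger late one. Its ratios were 1.94, 2.19 and 2.73 (lowest, median, highest) at 30 min and 3.14, 3.28 and 3.70 at 24 h, without overlap. The means were 4.77-fold and 10.03-fold, a difference of 1.07 ± 0.17 (SE; limma, adjusted p = 0.00041). For BM333948 the difference was 2.11 ± 0.45 (SE; adjusted p = 0.00702), for AF153448 0.75 ± 0.21 (SE; adjusted p = 0.0483) and for BM072886 0.62 ± 0.17 (SE; adjusted p = 0.0434). AF153448 and BM072886 are weakly held, since their calls were lost in 19 and 16 of 28 alternative settings, while those of BG874013, BM334491, DV490433 and DV491056 were kept in 28 of 28. The settings include a cutoff of adjusted p under 0.01 on the same fit, which AF153448 and BM072886 could not pass. The call of BM333948 was lost in 2 of 28. Leaving out any single replicate other than 30 min replicate 1 or 24 h replicate 6 lost AF153448 (adjusted p from 0.0615 to 0.126), and any other than 30 min replicate 1 or 24 h replicate 4 or 6 lost BM072886 (0.0569 to 0.108). The other 4 members with a larger late ratio were AW066985, DV551126, BM268839 and DV491771, with means of 1.36 to 2.15 at 24 h, named here after their values were seen.

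DV494689 went the other way. Its log2 ratios were 0.99, 1.54 and 1.62 (lowest, median, highest) at 30 min and -0.04, 0.51 and 0.79 at 24 h, so that every 24 h replicate fell below every 30 min replicate, as in 61 of all probes (0.793%). The mean went from 2.75-fold to 1.40-fold, a difference of -0.98 ± 0.17 (SE; limma, adjusted p = 0.0013), and the call was kept in 28 of 28 settings. BG842208 had the next largest negative estimate, from 2.97-fold to 1.78-fold (-0.74 ± 0.24, SE; adjusted p = 0.0969, and 0.00222 without 30 min replicate 1). DV491802 went from 2.78-fold to 2.01-fold (-0.47 ± 0.19, SE; adjusted p = 0.23). Both passed with array weights (adjusted p of 0.00655 and 0.0400), and BG842208 also with a replicate block (0.0179) or with a dye effect for each time (0.0367). AW067338 did not pass (-0.35 ± 0.20, SE; adjusted p = 0.393).

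**Figure D2:**
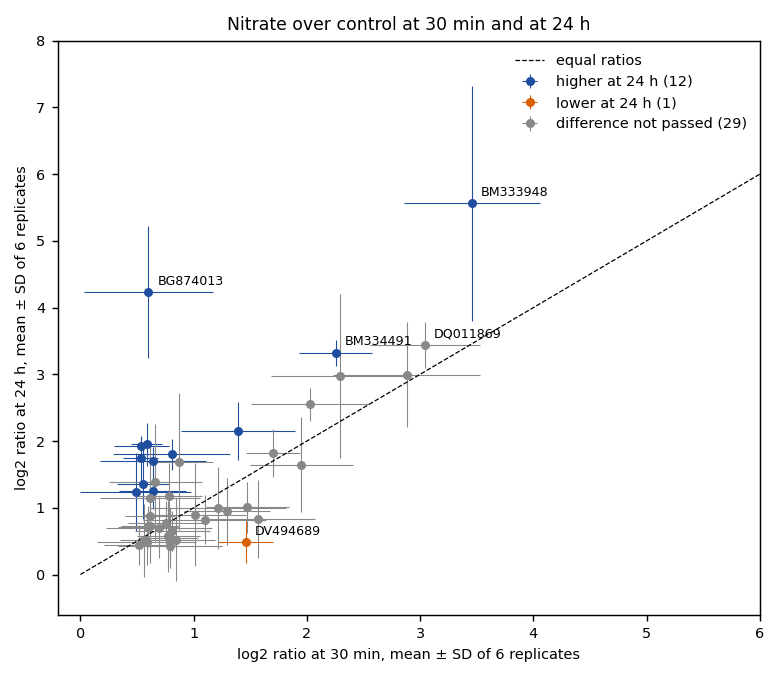
Mean log2 ratio at 24 h (y axis) against that at 30 min (x axis) for the 42 probes, with bars of 1 SD over 6 replicates and a dashed line of equal ratios. The 12 probes with a larger late ratio (blue) lie above the line, DV494689 (orange) lies below it, and the other 29 (grey) did not pass.

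The remaining 29 members, for which the difference did not pass, had medians of 0.81 at 30 min and 0.87 at 24 h, with estimated differences from -0.74 to 0.82. DV492546 came next after the 4-fold group, with 1.30, 1.89 and 2.69 (lowest, median, highest) at 30 min and 0.60, 1.64 and 2.70 at 24 h, and the late range enclosed the early one. Its nitrate channel was saturated in 6 of 6 High scans at each time, which gave mean ratios of 1.28 and 0.96, against 2.31 and 2.12 in the Low scans, so that in the Low scans it was more than 4-fold higher at both times. BG841998 had a small spread between replicates. Its ratios ran from 0.32 to 0.87 at 30 min and from 0.66 to 1.08 at 24 h, with SDs of 0.22 and 0.17, at 1.53-fold and 1.83-fold. These means include saturated scans, with the nitrate channel saturated in 6 of 6 and the control channel in 5 of 6 High scans at each time. At 24 h its ratio was 0.13 in the High and 1.65 in the Low scans, and its difference between the times passed in the Low scans alone (0.74; adjusted p = 0.0215) and in the highest-power scans without saturation (0.84; adjusted p = 0.0198). BG841986 was the one member with 2 spots, and these gave means of 1.31 and 1.28 at 30 min and of 0.95 and 0.94 at 24 h. At the shallow end BG873784 had means of 0.52 ± 0.31 and 0.44 ± 0.30 (SD, n = 6).

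The mean level of both channels was not used by the rule, but it is made of the same channels as the ratios, so that a change in the nitrate level alone also moves it. Between 30 min and 24 h it fell for 4 members and rose for 1, where 50 (0.650%) and 40 (0.520%) of all probes passed in these directions (limma on the 12 array means). DQ011869 showed the largest fall. Its mean level was 12.12 at the lowest, 12.69 at the median and 13.06 at the highest of the 30 min replicates and 10.47, 10.81 and 11.33 at 24 h, without overlap of the times. The change was -1.85 ± 0.18 (SE; adjusted p = 0.000185). The level of AI622662 fell by 1.56 on the log2 scale (SE 0.18; adjusted p = 0.00072) and that of DV491802 by 0.85 (SE 0.14; adjusted p = 0.0061), each again without overlap. All 24 h replicates were below all 30 min replicates for these 3 and for BG842208, and for 73 of all probes (0.950%). BM334491 changed by -0.86 ± 0.19 (SE; adjusted p = 0.0441), a call lost in 15 of 25 settings, among them the removal of any single replicate other than 30 min replicate 5 or 24 h replicate 1 or 6 (adjusted p from 0.0612 to 0.121). The 15 also include a cutoff of adjusted p under 0.01 on the same fit, which this call could not pass. Without 24 h replicate 1, 7 members and 112 of all probes (1.46%) passed as lower. BG874013 rose by 1.53 ± 0.21 (SE; adjusted p = 0.0017), the average of a nitrate level that changed by 3.35 and a control level that changed by -0.28.

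The level in the control roots alone gave a related picture. It was lower at 24 h than at 30 min for 4 members and higher for 0, where 18 of all probes (0.234%) passed as lower and 14 (0.182%) as higher in limma's separate-channel fit. At an unadjusted p under 0.05 the members counted 10 lower and 0 higher, and all probes 312 (4.06%) and 330 (4.29%). These control roots differed in how long they had stood in fresh calcium sulfate. The control channel is also the denominator of both ratios, so this measure is not free of the values that chose the members, and the times were on different arrays, so that time and array set cannot be told apart. The estimate was below 0 for 35 of 42 members with a median of -0.22, against 47.4% of all probes with a median of 0.01. Among the probes that met the 24 h condition of the rule alone the median was -0.12, and among those that met the 30 min condition alone it was 0.03. For 5 members (DQ011869, AI622662, BM334491, DV491802 and M23456) every 24 h control replicate lay below every 30 min one, as for 34 of all probes (0.442%).

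DQ011869 was again the clearest of them. Its normalized control level ran from 10.62 to 11.82 at 30 min and from 8.87 to 9.89 at 24 h, that is, to 0.241 of the earlier level (-2.05 ± 0.23, SE; limma, adjusted p = 1.94e-05). Its nitrate level fell by 1.65 as well (SE 0.23; adjusted p = 4.95e-05), beside ratios of 3.04 and 3.44. BM334491 differed from this. Its control level ran from 9.61 to 10.25 and then from 8.05 to 9.01, a change of -1.40 ± 0.21 (SE; adjusted p = 0.000694), whereas its nitrate level changed by -0.33 ± 0.21 (SE; adjusted p = 0.497).

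AI622662 had control levels of 10.78 to 12.33 and then of 9.33 to 10.07, a change of -1.61 ± 0.35 (SE; limma, adjusted p = 0.0306), and BM072886 had 12.31 to 12.90 and then 11.00 to 12.47, a change of -1.11 ± 0.22 (SE; adjusted p = 0.0174). The 24 h range of BM072886 overlapped with its 30 min range through 1 replicate. Both calls are less firm, since they were lost in 9 and 7 of 25 settings, and those of DQ011869 and BM334491 in 0 of 25. The settings include a cutoff of adjusted p under 0.01 on the same fit, which neither AI622662 nor BM072886 could pass. Without 30 min replicate 3 or 4, or without 24 h replicate 3, 4 or 5, neither passed and the count of lower members was 2, with 8 or 9 of all probes in place of 18. AI622662 was also lost without 30 min replicate 1 or 2, with an adjusted p of 0.0513 to 0.107 over these removals, and BM072886 without 24 h replicate 2, with 0.0506 to 0.0753.

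**Figure D3:**
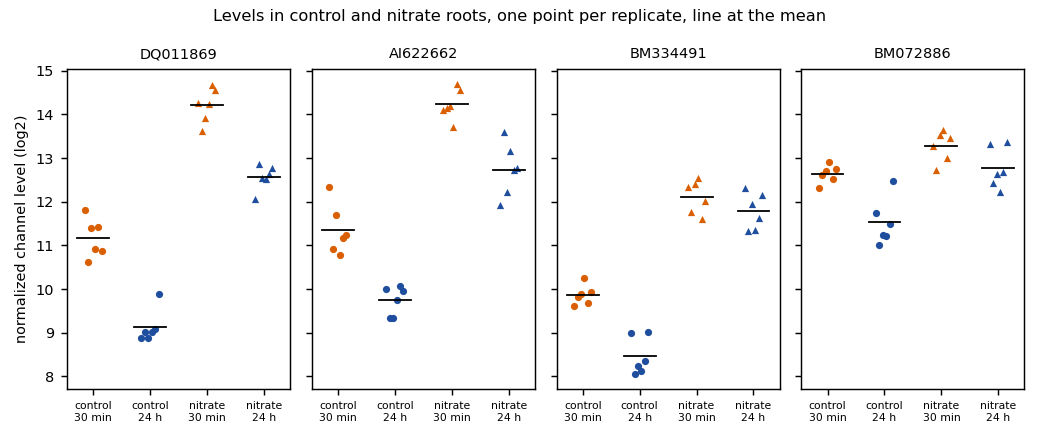
Normalized channel level (y axis, log2) of the 4 probes whose control level passed, in control roots (circles) and nitrate roots (triangles) at 30 min (orange) and 24 h (blue), 1 point per replicate with the mean as a line. For DQ011869 and AI622662 both levels are lower at 24 h, while for BM334491 the nitrate levels of the times overlap.

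The nitrate roots split the members in both directions. Their level was higher at 24 h than at 30 min for 5 members, against 129 of all probes (1.68%), and lower for 6, against 156 of all probes (2.03%). The 5, named here after their values were seen, were BG874013 (3.35 ± 0.31, SE), DV491056 (1.23 ± 0.19), DV490747 (1.06 ± 0.19), DV490433 (1.04 ± 0.15) and AW066985 (0.99 ± 0.25). Their limma adjusted p ran from 7.34e-08 to 0.0237. For these the control level estimates lay between -0.34 and 0.24, with adjusted p of 0.536 or more. The 6 were DQ011869, AI622662, DV494689, DV491802, BG841986 and DV549491, with changes of -1.65 to -0.76. The nitrate level of DV494689 changed by -1.10 ± 0.21 (SE; adjusted p = 0.00179) beside a control level that changed by -0.13 ± 0.21 (SE; adjusted p = 0.919).

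Brightness, saturation and dye were then compared. They are measured on the same channels as the ratios, so they are not free of the values that chose the members. The members were somewhat dimmer than the array as a whole, with a median normalized control level of 10.85 against 11.26 for all probes. Of the 42, 25 lay below the median probe. The 61 probes that met only the 30 min condition were dimmer than the members, with a median of 10.16 and 45 below the median probe. For the 391 that met only the 24 h condition these were 11.23 and 199. The control channel was above its local background in 12 of 12 High scans for 41 members, the other being DV494618. Saturation touched the nitrate channel of a High scan in 7 members at 30 min and in 20 at 24 h, and no Low scan of a member. In the Medium scan of 24 h replicate 3, 21.9% of all spots and 16 member spots were saturated. The other Medium scans had at most 2 saturated member spots each. At 24 h the High scans gave a median member ratio of 1.02, the Medium scans 1.22 and the Low scans 1.22, and at 30 min these were 0.79, 0.79 and 0.80. Beyond nitrate, a Cy5 over Cy3 dye effect passed in the model for 4 members with Cy5 higher and for 11 with Cy3 higher, against 21.1% and 22.5% of all probes. Among the members with the highest mean ratios it passed with Cy3 higher for BM333948, DV491035 and BG874013. Their estimates were -0.72, -0.55 and -0.51 (limma, adjusted p of 0.0162, 0.0147 and 0.00701). It did not pass for DQ011869, AI622662, BM334491, M23456 or DV492546. Differences from scans without saturation are given above for DV491035 and BG841998, and no test of saturation itself was run.

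The 43 spots of the members came from many source plates. Their share was 0.415% of the 5057 spots from plates with one naming scheme (21 spots) and 0.777% of the 2831 spots from the others (22 spots). The wells A7, B7 and C7 of one plate, which gave 96 spots, held AF153448, M23456 and DQ011869. The next wells of that column, D7 and E7, held DQ017582 and AB012228. Their means were 0.04 and -0.04 at 30 min and 0.33 and 0.14 at 24 h. In the column beside it, A8 and E8 (BQ619006 and BQ619021) had 0.03 and 0.27 at 30 min and 1.05 and 1.13 at 24 h. The wells B8, C8 and D8 had 0.01, 0.06 and 0.24 at 24 h. There were 3 pairs of members on neighbouring spots. The 55 other spots next to a member had median ratios of 0.03 at 30 min and 0.12 at 24 h, against -0.005 and -0.006 for all probes. Of these 55, 1 reached the 30 min threshold and 9 the 24 h threshold. Over all probes 1.34% and 5.63% met the conditions of the rule, which also counted replicates above 0 and used the deposited values. The median ratio of the neighbouring spots was thus somewhat above that of all probes at 24 h, and a cause was not tested. The counts at the thresholds are on unlike measures, so no conclusion is drawn from them.

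To read the response in replicates that the choice had not used, the rule was applied 12 times, each time without 1 replicate, and the chosen probes were then read in the replicate left out, all on the deposited values. Between 40 and 47 probes were chosen, of which 37 to 42 were members. Their median log2 ratio in the left-out replicate lay between 0.67 and 1.08 at 30 min and between 1.02 and 1.48 at 24 h, while the medians of all probes there lay between -0.03 and 0.07. At 30 min 239 of 251 readings were above 0, with 81.4% as the lowest share in a replicate (replicate 6), against 45.6% to 51.7% of all probes. At 24 h 250 of 271 were, with 80.4% as the lowest share (replicate 1), against 48.0% to 53.2% of all probes. The readings are mostly of the same probes, and the choices share most of their arrays, so these counts are a description.

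**Figure D4:**
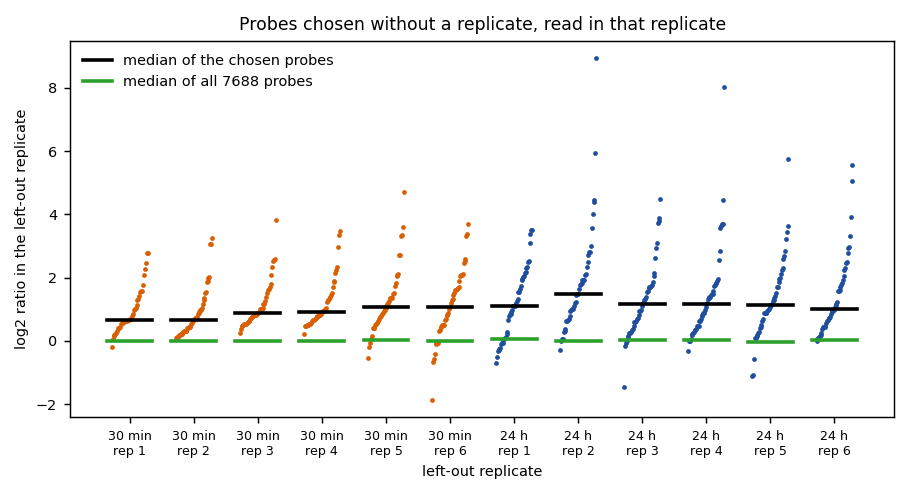
Log2 ratio (y axis) in each left-out replicate (x axis) of the probes chosen from the other replicates, 1 point per probe, with their median (black) and the median of all 7688 probes (green). The black lines lie between 0.67 and 1.48, and the green ones between -0.03 and 0.07.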

How the data were processed

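Root RNA was measured on 2-colour spotted cDNA arrays, 12 replicates of 3 scans. Per the file headers, the deposited scan files give the foreground and local background intensity of each spot, and a normalized value of each channel. Set against background-subtracted signal, the deposited normalized values are on a natural log scale, and the deposited final value was Cy5 minus Cy3 (largest gap 8.88e-16). How the authors normalized is not given in the sources used here. Columns from samples outside the labels numbered 0.

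The rule was applied to the deposited natural log values divided by ln 2. Other results start from the mean foreground intensity, with normexp (offset 50) and loess in each scan in limma 3.58.1 (R 4.3.3). The 3 scans of a replicate and then the spots of a probe were averaged (7888 spots, 7688 probes, 200 with 2 spots), and saturated spots were kept. The ratio model had a term for each time and a common dye effect (9 residual degrees of freedom). Levels were set between scans by Aquantile and fitted by channel (intraspot correlation 0.657). A probe passed at a p under 0.05 after Benjamini-Hochberg adjustment across all probes. The number of arrays limits the precision. Loess and Aquantile remove a shift common to all probes.

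The members and lists were chosen with earlier results of these data known. Named are the 8 members with the highest mean ratio, the 4 with the largest difference of the times in each direction, the 3 with the smallest and largest spread, those with several spots, those whose control level passed, and those next to a threshold.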

Additional observations from a re-analysis of the deposited data

Results flagged for a closer look

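In 46 sets of 6 replicates, 4 held a value set far apart from the other 5, and chance alone flags about 1 in 20 sets. The control level of DQ011869 in 24 h replicate 6 was 9.89, where the others lay between 8.87 and 9.09. The log2 ratio of BM334491 in 24 h replicate 3, the array with many saturated spots, was 3.70, where the others lay between 3.14 and 3.32. The ratio of BG874013 in 30 min replicate 6 was -0.53 (others 0.64 to 0.98), and that of DV494689 in 30 min replicate 1 was 0.99 (others 1.46 to 1.62).

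The response differed between the times, by limma's test of the difference itself, for 8 of the 19 members picked by the naming rule. Over all probes 177 (2.30%) passed as higher at 24 h and 149 (1.94%) as lower. The calls of AF153448 and BM072886 are weakly held, lost in 19 and 16 of 28 settings. The log2 ratio at 24 h minus that at 30 min was 2.11 for BM333948, 1.07 for BM334491, 3.63 for BG874013, 1.38 for DV490433, 1.36 for DV491056, 0.62 for BM072886, 0.75 for AF153448 and -0.98 for DV494689.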

How the results depend on the processing

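The rule gave 31 to 54 probes under other thresholds, scans or values and 40 to 47 without 1 replicate, with member medians of 0.72 to 0.96 at 30 min and 1.06 to 1.38 at 24 h (1.375 with the sign required in 6 of 6 replicates). No named value that had passed changed its sign under an alternative. High scans alone gave 55 passing probes at 30 min and 182 for the difference, 8 members for the difference, 6 probes with a higher control level and 3 members with a higher nitrate level. Without a dye effect the counts were 50 at 30 min, 514 at 24 h and 137 for the difference, with 8 members. Array weights gave 1899 at 24 h and 642 for the difference. At an adjusted p under 0.01 the counts were 568 at 24 h and 173 for the difference, 7 lower and 1 higher control levels, 2 members with a lower control level and 3 with a lower nitrate level. The scale to a common median gave 7 higher control levels. A higher mean level was called for 2 members in the Low scans, in the highest-power scan without saturation and without the High and Medium scans of 24 h replicate 3. With 30 min replicates 1 to 4 alone, an alternative added after seeing the data, as were the previous one and all those for the nitrate and mean levels, the counts were 39 at 30 min with 20 members, 197 for the difference, 47 lower and 51 higher control levels and 7 members with a lower mean level.

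Without single replicates the counts ran from 58 to 105 at 30 min (29 to 40 members), 755 to 1414 at 24 h (40 to 42 members), 243 to 465 for the difference (9 to 14 members), 8 to 50 for a lower and 2 to 24 for a higher control level, with 2 to 5 members lower. A lower mean level was called for 3 to 7 members (7 without 24 h replicate 1, with 112 of all probes), and a higher one for 1. A nitrate level was called higher for 4 to 6 and lower for 4 to 7. Shares over all probes are not given for the other nitrate and mean level counts of this section. Nothing about the members is read from those counts. Replicate numbers did not pair the times: the deviations of same-numbered replicates correlated at -0.20 to 0.57, and 1 of 6 replicates correlated best with its own number. With a replicate block, 16 members passed for the difference, with 488 of all probes in place of 326. In that setting 42 lower and 22 higher control levels were called over all probes. The median foreground alternative left out 1 scan whole, whose corrected values were not finite. The causes were not tested. Depth on these arrays is signal over background: control signals of 41 members were above it in all High scans.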
